A study of Mus musculus with 28 samples.

Results

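A set of 744 genomic regions in mouse macrophages had less acetylation of histone H3 at lysine 27 (H3K27ac) with 2 glucocorticoids, and more with interleukin 4 (IL4), by a rule on mean levels. The rule was applied to H3K27ac read counts in CPM (the count divided by the library's total in peaks, scaled to 1000000). A peak was taken where the mean over the IL4 libraries was at least 3 CPM and where the ratio to vehicle, with 0.5 added to both means, was at most 0.77 with corticosterone and with dexamethasone and at least 1.3 with IL4. Of 63313 H3K27ac peaks, 34345 reached 3 CPM with IL4, and 744 met the whole rule. The values of these libraries chose the peaks, so the 3 comparisons with vehicle are given below as a description. The cells were macrophages obtained by growing marrow of male C57BL/6 mice, 8 to 10 weeks old, for 5 days in medium with L-cell supernatant. They were treated with corticosterone (Cort, the main glucocorticoid of mice) at 500 nM, with dexamethasone (Dex, a synthetic glucocorticoid) at 100 nM, with IL4 at 10 ng/ml, or with vehicle. The stated treatment lasted 24 h, though no time stands in the titles of the vehicle H3K27ac libraries. H3K27ac was measured by chromatin immunoprecipitation and sequencing in 3 libraries per group. The glucocorticoid receptor (GR) was measured in 4 Cort, 4 Dex, 3 IL4 and 4 vehicle libraries of batches 1 and 2, and all 3 IL4 libraries belong to batch 2. All groups are primary cells cultured in the same medium, and separate animals were not stated, so p-values cover the spread between libraries, which may be technical.

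H3K27ac marks active enhancers and promoters, and its level at an enhancer follows the binding of activators that recruit acetyltransferases. IL4 acts in macrophages through the factor STAT6, which activates genes of alternative activation, lipid uptake and cell fusion in cells whose enhancers depend on PU.1. Glucocorticoids act through GR, which binds palindromic elements at genes it activates and is known to lower other genes through AP-1 and NF-κB sites or without direct binding.

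The libraries held 6829787 to 15695771 H3K27ac counts in peaks, and 900063 to 1981582 GR counts over 8394 peaks. edgeR's biological coefficient of variation came to 0.24 (H3K27ac) and 0.439 (GR). All 9 macrophage marker genes, such as Csf1r, Spi1 and Adgre1, had H3K27ac peaks, with summed levels of 3190 to 3560 CPM in Cort, 3120 to 3610 CPM in Dex, 2720 to 2980 CPM in IL4 and 3210 to 3390 CPM in vehicle libraries. Fibroblast markers had peaks at 1 of 8 genes and none at Col1a1, Col3a1 or Pdgfra. Lymphoid markers had peaks at 3 of 8 genes and none at Cd3e or Pax5. Dendritic markers had them at 7 of 8 genes and neutrophil markers at 5 of 8. For mast or basophil markers it was 2 of 6, and for erythroid or megakaryocyte markers 3 of 7. The lymphoid list summed to 127 to 176 CPM in Cort and 130 to 158 CPM in Dex libraries. It summed to 100.0 to 155 CPM in IL4 and 191 to 229 CPM in vehicle libraries. Neutrophil marker peaks summed to 36.7 to 48.4 CPM in IL4 and 31.7 to 48.7 CPM in vehicle libraries, with 34.2 to 42.2 CPM in Cort and 38.6 to 41.3 CPM in Dex. Mast or basophil peaks summed to at most 6.43 CPM. The dendritic marker peaks summed to 216 to 280 CPM in Cort, 234 to 264 CPM in Dex, 123 to 144 CPM in IL4 and 246 to 320 CPM in vehicle libraries, and the erythroid or megakaryocyte peaks to 62.6 to 106 CPM, 58.9 to 98.8 CPM, 38.5 to 47.9 CPM and 74.0 to 85.9 CPM in the same groups. The fibroblast list, which rests on 1 gene, summed to 67.5 to 79.1 CPM in Cort, 72.6 to 79.3 CPM in Dex, 70.9 to 86.5 CPM in IL4 and 57.3 to 59.6 CPM in vehicle libraries. The part of other cells in the results below was not tested. Fewer cells with a mark and less of the mark per cell cannot be told apart in such samples.

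Few of the 744 peaks covered a promoter. Windows of 250 bases before to 50 after a gene start, taken from RefSeq on build GRCm38.p6 (the same assembly as the mm10 of the counts), were touched by 9 of them, at Batf3, Pcdh7, Cd300ld, Acot7, Anxa2, Sh3kbp1, Cd36, Serpinb1b and Gatm. The following 4 are shown because their genes recur below, each 5′ to 3′ on the strand of its gene, with any match to the searched motifs in capitals.
Batf3 (chr1:191098164-191098463, plus strand): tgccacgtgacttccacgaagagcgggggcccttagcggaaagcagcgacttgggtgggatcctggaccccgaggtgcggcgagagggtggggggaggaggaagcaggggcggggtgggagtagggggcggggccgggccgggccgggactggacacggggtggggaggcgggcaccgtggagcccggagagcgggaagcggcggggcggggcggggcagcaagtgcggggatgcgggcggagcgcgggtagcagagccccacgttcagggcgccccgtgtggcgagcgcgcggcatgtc
Anxa2 (chr9:69453433-69453732, plus strand): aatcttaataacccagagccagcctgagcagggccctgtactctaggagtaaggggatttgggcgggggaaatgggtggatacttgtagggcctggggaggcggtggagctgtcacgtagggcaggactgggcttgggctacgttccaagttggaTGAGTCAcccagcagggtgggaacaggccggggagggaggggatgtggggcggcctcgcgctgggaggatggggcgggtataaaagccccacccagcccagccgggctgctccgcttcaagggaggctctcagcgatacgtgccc
Sh3kbp1 (chrX:159840218-159840517, plus strand): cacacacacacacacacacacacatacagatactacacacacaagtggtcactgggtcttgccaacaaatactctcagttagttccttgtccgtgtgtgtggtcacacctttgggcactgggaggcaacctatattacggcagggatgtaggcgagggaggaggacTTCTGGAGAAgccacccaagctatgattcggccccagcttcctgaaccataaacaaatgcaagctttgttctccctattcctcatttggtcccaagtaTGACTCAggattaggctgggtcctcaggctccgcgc
Cd36 (chr5:17835847-17836146, minus strand): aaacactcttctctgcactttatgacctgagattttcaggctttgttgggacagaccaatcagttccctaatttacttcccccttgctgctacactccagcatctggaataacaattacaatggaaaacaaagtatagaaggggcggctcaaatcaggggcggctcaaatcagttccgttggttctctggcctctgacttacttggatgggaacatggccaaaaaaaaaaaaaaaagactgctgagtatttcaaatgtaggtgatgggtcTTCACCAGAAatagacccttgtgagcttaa
The motifs were searched on both strands. The STAT6-type palindrome TTCNNNNGAA was found in 3 of the 9 windows, those of Sh3kbp1, Cd36 and Serpinb1b, and in 6.30% of 19558 promoter windows of named genes. The AP-1 motif TGANTCA was found in 2 (Anxa2 and Sh3kbp1) against 7.13% of all windows, and the PU.1 motif GAGGAAGT in 1 (Cd300ld) against 3.20%. The core of the GR palindrome, ACANNNTGT, was found in 0 of the 9 windows and in 5.84% of all windows. No 2 motif matches overlapped in the windows shown. In addition, 3 of the peaks contained a miRNA hairpin. One of them, in Mrc1, which encodes the mannose receptor CD206, a marker of alternative activation, contained the hairpin of Mir511 (chr2:14261003-14261081). The mature miRNA of that hairpin is shown with its seed, bases 2 to 8, in capitals.
mmu-miR-511-3p: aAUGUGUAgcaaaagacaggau
The other two hairpins were Mir6994 in Patl1 and Mir3109 in Anxa2, and RefSeq supplied all miRNA sequences.

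The peaks were of moderate strength and spanned a wide range. Their mean level ran from 0.296 to 160 CPM with Cort (median 3.68), from 0.252 to 150 CPM with Dex (median 3.4), from 3.01 to 286 CPM with IL4 (median 12.4) and from 0.643 to 218 CPM with vehicle (median 5.91). Summed over the 744 peaks, the Cort libraries held 5423.4, 5598.3 and 5156.3 CPM, the Dex libraries 4925.5, 5148.1 and 4808.7 CPM, the IL4 libraries 16484, 15366 and 15883 CPM and the vehicle libraries 8545.8, 7285.4 and 8878.1 CPM. Every steroid library thus lay under every vehicle library in this sum and every IL4 library above, as the rule requires of the means. The median ratio to vehicle was 0.687 for Cort, 0.645 for Dex and 1.79 for IL4. The lowest ratio was 0.382 for Cort and 0.286 for Dex, and the highest for IL4 was 13.7. A steroid ratio of 0.5 or less was reached by 28 peaks with Cort and by 68 with Dex, whereas 282 peaks (37.9%) had an IL4 ratio of 2 or more and 44 had one of 4 or more.

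**Figure D1:**
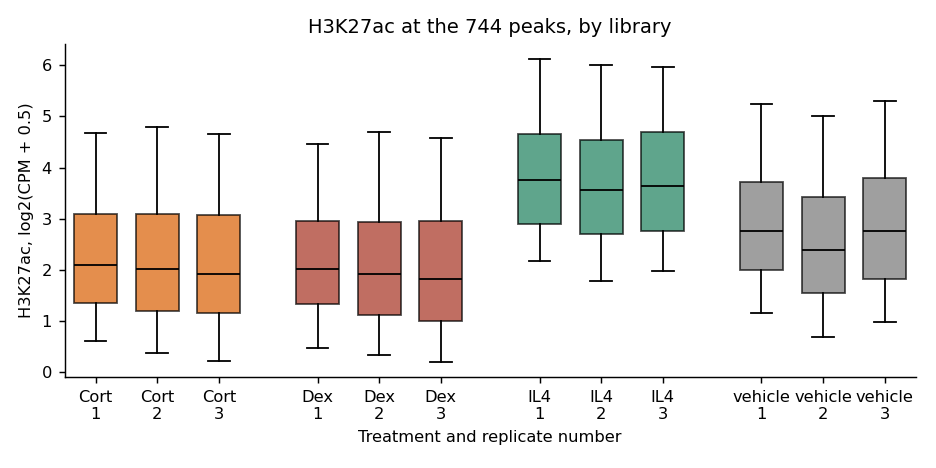
H3K27ac at the 744 peaks in each of the 12 libraries, as log2(CPM + 0.5), grouped by treatment on the horizontal axis and numbered by replicate. Boxes span the quartiles with the median as a line, and whiskers the 5th to 95th percentiles of peaks; the boxes of the 6 steroid libraries sit lowest and those of the 3 IL4 libraries highest, as the rule requires.

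The cut-offs had peaks close on either side. For Cort, the peaks nearest Cbr1 (chr16:93624634-93626955, ratio 0.7698) and in Anpep (0.7689) were just inside, and peaks near Dcstamp (chr15:39736891-39738332, 0.7701) and Tmprss13 (0.7702) just outside. For Dex, Ttc39b (0.769) and Cd44 (0.7689) were inside and Tmem158 (0.7703) and Rtf2 (0.7703) outside. For IL4, peaks near Mturn (1.3) and 179 kb from Gsdmc (1.301) were inside, and those in Lmbr1 (1.3, just under the limit) and Lrch3 (1.297) outside.

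Fewer of the peaks were free of overlap with vehicle for the steroids, whose ratios were nearer to vehicle, than for IL4. Of the 744 peaks, 326 (43.8%) had every Cort library under every vehicle library, against 11% of the 34345 peaks. The same held of 396 peaks (53.2%) for Dex, against 14%, and of 593 (79.7%) for IL4 above vehicle, against 26.2%. In edgeR's quasi-likelihood fit over 59881 tested peaks, in which all 744 were tested, 19 were called lower with Cort (2.55%, background 0.376%), 120 lower with Dex (16.1%, background 2.34%) and 495 higher with IL4 (66.5%, background 14.7%), at a Benjamini-Hochberg adjusted p under 0.05. With the replicate number as a block these became 273 with Cort (background 6.13%), 439 with Dex (background 10.3%) and 694 with IL4 (background 21.9%). Nothing is read from these counts, since the rule used the same contrasts. Single libraries moved the steroid counts. The Cort count was 7 without Cort replicate 1, 4 without Cort replicate 3, 12 without IL4 replicate 1, 12 without vehicle replicate 1 and 2 without vehicle replicate 3. The Dex count was 33 without Dex replicate 1, 29 without Dex replicate 3, 66 without vehicle replicate 1 and 29 without vehicle replicate 3.

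Vehicle replicate 2 was the lowest of the vehicle libraries over these peaks, and the steroid difference was smallest in its number. Against the vehicle library of the same number, the median log2 ratio of the 744 peaks was -0.63 in Cort replicate 1, -0.36 in Cort replicate 2 and -0.74 in Cort replicate 3. For Dex it was -0.72, -0.41 and -0.81 in replicates 1, 2 and 3, and for IL4 0.85, 1.02 and 0.78. Since these libraries had chosen the peaks, the rule was applied again to the libraries of 2 replicate numbers and the ratios were read in the third number, which shares no library with the choice. Of 692 peaks chosen without replicate 1, 86.7% were under vehicle in Cort replicate 1, 89.5% in Dex replicate 1, and 98.4% above it in IL4 replicate 1, against 56.0%, 53.9% and 48.7% of all peaks over 3 CPM. Of 1048 chosen without replicate 2, the shares were 65.6% for Cort, 67.5% for Dex and 98.0% for IL4, against 52.7%, 51.2% and 51.5%. Of 639 chosen without replicate 3, they were 88.4%, 93.3% and 95.1%, against 53.0%, 53.8% and 51.9%. The median log2 ratios in the left-out libraries were -0.47, -0.15 and -0.58 for Cort, -0.58, -0.20 and -0.73 for Dex and 0.95, 1.14 and 0.88 for IL4, for replicates 1, 2 and 3. The medians thus kept the direction of each treatment in all 3 numbers, and replicate 2 had the steroid ratios nearest to vehicle. All 3 directions held together at 80.5%, 55.6% and 80.1% of the chosen peaks, against 18.1%, 15.0% and 16.4% of all peaks over 3 CPM. The ratio limits of the rule were met there by 39.6%, 16.9% and 42.7%, against 2.84%, 1.46% and 3.22%. Of the peaks chosen without replicates 1, 2 and 3, 482, 589 and 461 were among the 744. The 3 treatments share the vehicle library of a number, so their values are not independent, and peaks are not replicates.

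**Figure D2:**
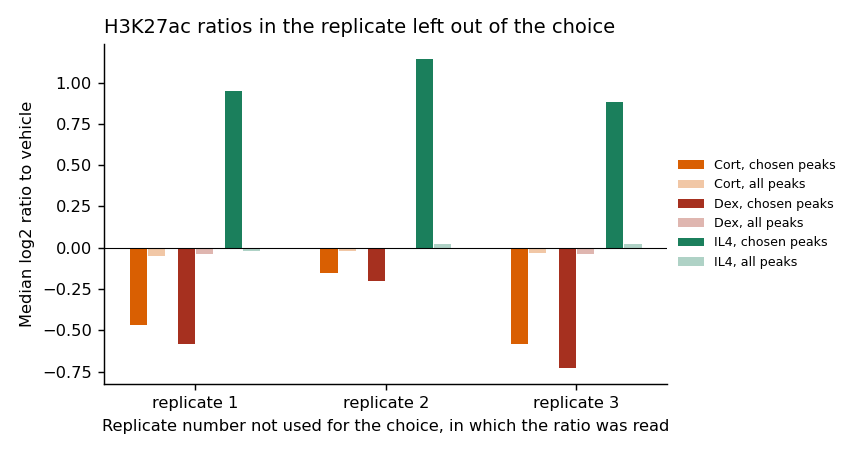
Median log2 ratio to the same-numbered vehicle library for Cort, Dex and IL4, in the replicate number left out when peaks were chosen (dark bars, 692, 1048 and 639 chosen peaks; pale bars, all peaks of at least 3 CPM with IL4). The steroid bars lie below 0 and the IL4 bars above in each number, with the shortest steroid bars in replicate 2, at -0.15 for Cort and -0.20 for Dex.

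The 744 peaks lay away from gene starts. Inside a gene span were 389 of them (52.3%), against 68.9% of the peaks of at least 3 CPM with IL4, and over 50 kb from any named gene were 137 (18.4%), against 9.31%. Within 1 kb of a gene end were 47 (6.32%), against 28.4%, and the 9 that touched a promoter window made 1.21%, against 21.9%. Each side of the rule was also looked at alone. Among 5633 peaks raised by IL4 with steroid levels within 1.3-fold of vehicle, 11.9% touched a promoter window and 10.8% lay over 50 kb away. Among 3442 peaks lowered by both steroids and not raised by IL4 these were 5.43% and 15.2%. The 744 peaks were also weaker in vehicle than others (median 5.91 CPM, against 12.7 CPM) and shorter (median 1579 bp, against 1824 bp). When only the 279 of them within their own interquartile ranges of length and vehicle level were set beside 8714 peaks of the same ranges, 0 touched a promoter window, against 11.2%, and 52.3% lay in a gene, against 66.5%. In that range 19.4% lay over 50 kb from a gene, against 10.1%. The shares were not tested, since neighbouring peaks are not independent.

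**Figure D3:**
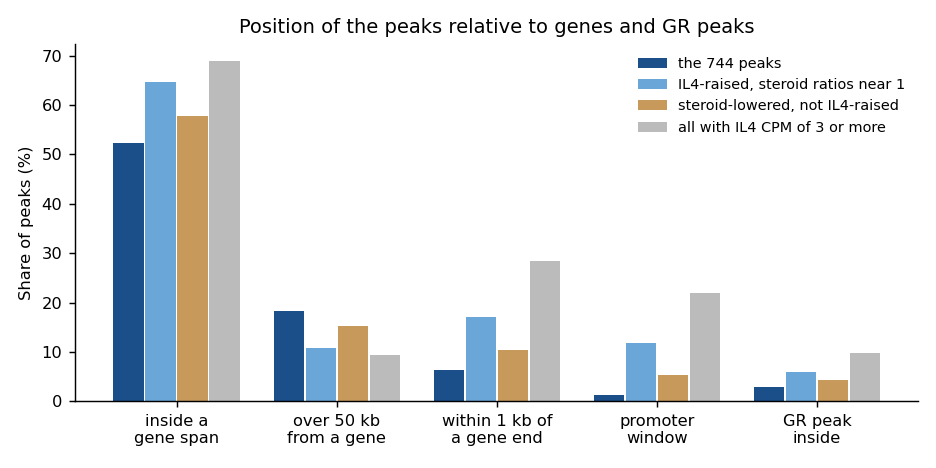
Share of peaks (vertical axis, %) by position, for the 744 peaks, the 5633 raised by IL4 with steroid levels near vehicle, the 3442 lowered by steroids and not raised by IL4, and all 34345 peaks of at least 3 CPM with IL4. The 744 have the lowest bars for promoter windows (1.21%) and gene ends (6.32%) and the highest for sites over 50 kb from a gene (18.4%).

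With a gap of at most 50 kb, 509 of the 744 peaks stood alone, and 235 (31.6%) stood in 97 groups of 2 or more, 93 of them in groups of 3 or more. How often other peaks group in this way was not measured. The medians of the peaks next to one leaned the same way, in the same libraries that chose the set, so this is a description. Neighbours were the nearest peak of at least 3 CPM with IL4 on either side, within 50 kb, if outside the set. These 987 had median log2 ratios of -0.17 for Cort, -0.23 for Dex and 0.29 for IL4. Among all 33601 peaks outside the set, the 987 included, the medians were -0.02, -0.01 and -0.01. All 3 directions held together at 44.2% of the neighbours, against 16.8% of the 33601. In all, 496 genes were the nearest within 50 kb of at least 1 of the 744 peaks, 80 of them for 2 or more and 20 for 3 or more. Assignment by distance says nothing of which gene a peak acts on.

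A run 117 to 214 kb from Dusp4, a MAP kinase phosphatase, held 7 of the 8 peaks over 98.56 kb (chr8:34592252-34690808). Its peak at chr8:34668484-34673083 had 8.49, 12.2 and 11.8 CPM with Cort, 7.11, 10.3 and 7.28 CPM with Dex, 100.5, 102 and 113 CPM with IL4 and 19.6, 22.5 and 23.4 CPM with vehicle. Neither steroid group nor the IL4 group overlapped vehicle there, and the ratios were 0.507 for Cort, 0.391 for Dex and 4.73 for IL4. The peak at chr8:34645874-34648484 had 7.76, 8.87 and 9.48 CPM with Cort, 6.48, 8.34 and 6.85 CPM with Dex, 49.4, 56.1 and 53.6 CPM with IL4 and 17.6, 13.2 and 23.4 CPM with vehicle, again with no overlap. The 1 other peak of the run, at chr8:34626325-34627183, had log2 ratios of -0.27 for Cort, 0.08 for Dex and 1.14 for IL4.

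Myo1e, a class I myosin that links membrane and actin, held 7 of 11 peaks in a run of 78.69 kb (chr9:70242878-70321570), and 7 of the 20 peaks given to the gene. The members there had median log2 ratios of -0.56 for Cort, -0.75 for Dex and 0.85 for IL4. The peak at chr9:70301176-70308396 in the same run was not of the set, since it was lower with IL4 too, with log2 ratios of -0.72 for Cort, -0.90 for Dex and -0.60 for IL4. The run of Lpl, which encodes lipoprotein lipase, held 6 of 8 peaks (chr8:68879520-68927832). Its longest, chr8:68905560-68917015, had 58.9, 57.6 and 63.7 CPM with Cort, 51.8, 45.3 and 49.6 CPM with Dex, 257, 231 and 249 CPM with IL4 and 123, 83.0 and 152 CPM with vehicle.

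At Pparg, which encodes a lipid-sensing nuclear receptor induced by IL4, members and other IL4-responsive peaks alternated. A run of 94.63 kb between Syn2 and Pparg (chr6:115283245-115377873) held 5 of 12 peaks. The peak at chr6:115373319-115377873 had 27.7, 34.9 and 23.2 CPM with Cort, 21.1, 29.2 and 35.9 CPM with Dex, 63.5, 65.9 and 54.6 CPM with IL4 and 38.8, 40.2 and 49.8 CPM with vehicle. Between members lay chr6:115348292-115351199, with log2 ratios of 0.02 for Cort, -0.17 for Dex and 2.44 for IL4, and chr6:115360303-115363073, with -0.14, -0.34 and 1.64. The largest IL4 ratios of the run were thus at peaks that the steroids left within 1.3-fold of vehicle.

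**Figure D4:**
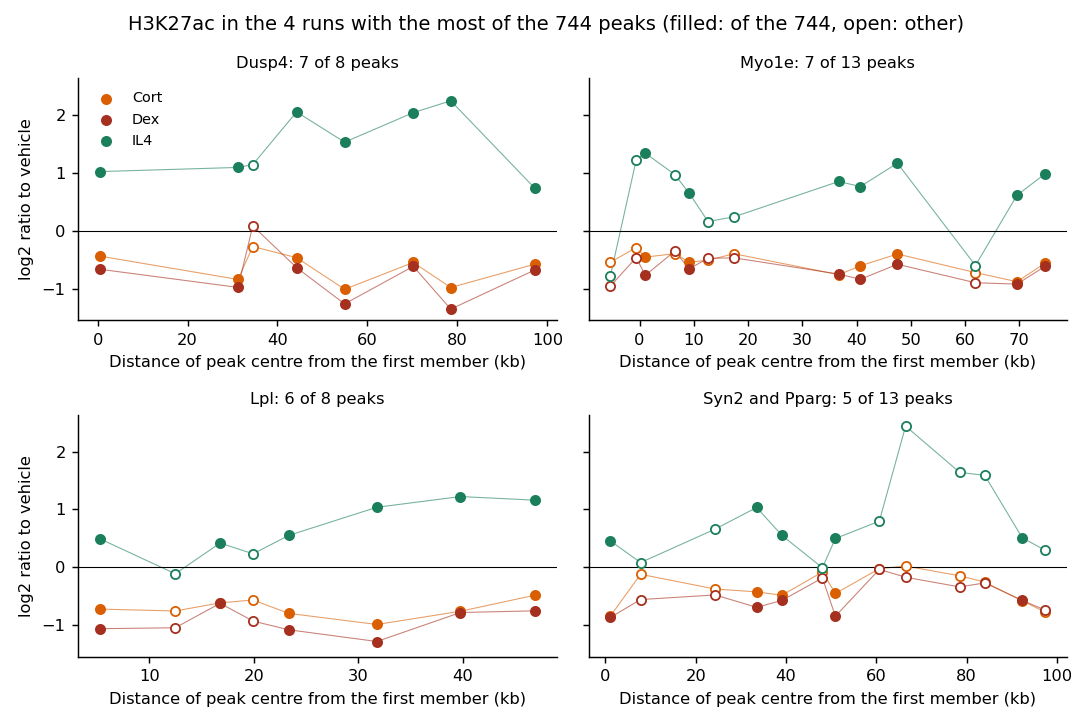
Log2 ratio to vehicle (vertical axis) of each peak of at least 3 CPM with IL4 in the 4 runs with the most members and 10 kb on either side, by distance in kb of the peak's centre from the start of the first member (horizontal axis); filled points are members and open points other peaks. The run near Dusp4 holds 7 members of 8 peaks, and 4 open points in the run of Syn2 and Pparg have IL4 ratios of 0.80 to 2.44 with steroid ratios of -0.34 to 0.02.

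Among the 11 lists, which were fixed with earlier results of these data known, lipid metabolism genes held the largest share of members. The order of the lists is therefore a description. Of their 120 peaks of at least 3 CPM with IL4, 14 (11.7%) were members, at Abca1, Acsl1, Cd36, Lpl, Pparg and Scd2, against 2.17% of all such peaks. Lpl held 6 of the 14 and Pparg 4, and the others had 1 each. Only 6 of the list's 24 genes had a member, so the share rests mainly on Lpl and Pparg. In the fit of all peaks, 3 of the list's 197 tested peaks were called higher and 5 lower with Cort, 3 higher and 10 lower with Dex, and 44 higher and 7 lower with IL4. With the block these were 15 and 19 for Cort, 18 and 33 for Dex and 72 and 15 for IL4. Over all tested peaks, 1.18% were called higher and 0.376% lower with Cort, 2.9% and 2.34% with Dex and 14.7% and 12.9% with IL4, or with the block 6.44% and 6.13%, 9.91% and 10.3%, and 21.9% and 21.6%. The list's median log2 change was -0.04 with Cort, -0.09 with Dex and 0.33 with IL4, against 0.00, 0.01 and -0.02 over all tested peaks.

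Cd36, the scavenger receptor that takes up oxidised lipoproteins, had one of the strongest members (chr5:17830195-17844859), which covers the promoter shown above. It had 136, 121 and 64.7 CPM with Cort, 115, 116 and 90.0 CPM with Dex, 261, 224 and 125 CPM with IL4 and 145, 154 and 146 CPM with vehicle. Replicate 3 of IL4 lay under all 3 vehicle libraries, so the IL4 and vehicle groups overlapped, while both steroid groups lay under vehicle. Abca1, the cholesterol exporter, was the nearest gene to 4 members in a run of 69.71 kb, of which only 1 lay within 50 kb of it and counts for the list. That one, 41.1 kb away (chr4:53201064-53202979), had 2.78, 4.17 and 3.20 CPM with Cort, 2.79, 3.75 and 2.02 CPM with Dex, 14.7, 17.7 and 12.5 CPM with IL4 and 6.58, 6.63 and 5.61 CPM with vehicle, without overlap. Of the fatty acid enzymes, the member in Scd2, a stearoyl-CoA desaturase, varied widely between libraries, at 17.0 ± 7.0 CPM with Cort, 15.2 ± 4.2 CPM with Dex, 36.9 ± 14 CPM with IL4 and 28.1 ± 16 CPM with vehicle (SD, n = 3 each). The member 40.5 kb from Acsl1, an acyl-CoA synthetase, had 1.53 ± 0.99 CPM with Cort, 1.85 ± 1.6 CPM with Dex, 7.67 ± 3.8 CPM with IL4 and 2.67 ± 1.3 CPM with vehicle.

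Genes of osteoclasts and macrophage fusion came next, with 8 members among 76 peaks (10.5%), at Cd9, Dcstamp, Itgb3, Siglec15 and Src. Of the list's 137 tested peaks, 1 was called higher and 0 lower with Cort, 3 higher and 4 lower with Dex, and 47 higher and 21 lower with IL4; the block gave 6 and 9, 6 and 22, and 58 and 30. Siglec15, a sialic acid receptor of multinucleating cells, had a member 13.7 kb away (chr18:78071091-78073277) with 7.91, 6.49 and 7.27 CPM with Cort, 6.99, 6.51 and 6.70 CPM with Dex, 27.2, 29.0 and 30.0 CPM with IL4 and 14.1, 7.18 and 11.6 CPM with vehicle. The Dex libraries lay under vehicle there, and the Cort libraries overlapped vehicle replicate 2. Src, the tyrosine kinase needed for bone resorption, had 16.6 ± 1.9 CPM with Cort, 15.2 ± 2.9 CPM with Dex, 46.4 ± 7.9 CPM with IL4 and 25.1 ± 7.2 CPM with vehicle (chr2:157445723-157449384, SD, n = 3 each). The member near Dcstamp, a membrane protein required for fusion, had 0.732, 1.06 and 0.661 CPM with Cort, 2.54, 0.995 and 1.59 CPM with Dex, 5.18, 5.47 and 8.06 CPM with IL4 and 3.09, 1.26 and 3.31 CPM with vehicle (chr15:39734832-39735832).

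Among transcriptional regulators, 13 of 213 peaks (6.10%) were members, at Batf3, Bhlhe40, Ets1, Runx1 and Runx2. The list's 351 tested peaks had 2 called higher and 1 lower with Cort, 6 and 7 with Dex and 91 and 45 with IL4, or 25 and 27, 30 and 43, and 121 and 71 with the block. Batf3, an AP-1 family factor of dendritic cells and macrophages, had 3 members, among them the peak over the promoter shown above (chr1:191096039-191099171). That peak had 5.12, 5.10 and 2.42 CPM with Cort, 4.57, 3.67 and 4.04 CPM with Dex, 29.5, 26.6 and 29.9 CPM with IL4 and 6.44, 11.6 and 5.80 CPM with vehicle, with no overlap of any treatment with vehicle. The member 3.49 kb from the gene (chr1:191092428-191094924) had 2.78, 2.71 and 3.31 CPM with Cort, 2.29, 2.76 and 2.23 CPM with Dex, 28.1, 23.4 and 30.1 CPM with IL4 and 5.37, 4.82 and 3.70 CPM with vehicle. Bhlhe40, a basic helix-loop-helix repressor, had 1.99 ± 0.75 CPM with Cort, 1.57 ± 0.44 CPM with Dex, 7.97 ± 1.1 CPM with IL4 and 3.39 ± 0.41 CPM with vehicle at a member 28.9 kb away. Of the Runx factors, which pair with CBFβ at myeloid enhancers, a member 25.3 kb from Runx1 (chr16:92851336-92854421) had 6.48 ± 1.9 CPM with Cort, 5.91 ± 1.2 CPM with Dex, 37.4 ± 9.6 CPM with IL4 and 8.64 ± 2.0 CPM with vehicle (SD, n = 3 each). Ets1 had 3 members inside the gene, of which chr9:32693796-32696751 had 11.4 ± 1.2 CPM with Cort, 7.49 ± 1.2 CPM with Dex, 25.1 ± 3.6 CPM with IL4 and 18.5 ± 1.2 CPM with vehicle.

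Of 140 peaks of the IL4/STAT6-induced list, which holds classical targets of IL4, 5 (3.57%, against 2.17% of all such peaks) were members, at Batf3, Mrc1 and Tgm2. The Mrc1 member with the Mir511 hairpin (chr2:14260036-14264370) had 29.4, 27.3 and 23.1 CPM with Cort, 25.5, 17.9 and 26.2 CPM with Dex, 58.1, 68.0 and 53.3 CPM with IL4 and 39.2, 36.8 and 40.3 CPM with vehicle, with no overlap. Of the list's 212 tested peaks, 101 were called higher and 10 lower with IL4, while 5 were higher and 0 lower with Cort and 13 higher and 4 lower with Dex. The block gave 126 and 16 with IL4, 26 and 11 with Cort and 32 and 16 with Dex.

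The other lists held 0 to 4 members each, which is a share of 0.0% to 4.65% of their peaks, against 2.17% of all peaks of at least 3 CPM with IL4. Antigen presentation and costimulation had 2 of 43 peaks (4.65%). They were in Cd40, the receptor for CD40 ligand (11.7 ± 1.8 CPM with Cort, 9.96 ± 1.8 CPM with Dex, 29.8 ± 1.5 CPM with IL4 and 18.5 ± 3.3 CPM with vehicle), and in Ciita, the master activator of MHC class II genes (11.1 ± 1.8, 9.35 ± 1.7, 31.3 ± 5.8 and 14.9 ± 4.2 CPM in the same groups). Tissue remodelling had 4 of 94 peaks (4.26%), at Igf1, Pdgfb and Spp1. The member 39.6 kb from Igf1, a growth factor of repair macrophages, had 11.8 ± 0.88 CPM with Cort, 9.53 ± 2.3 CPM with Dex, 40.6 ± 2.3 CPM with IL4 and 16.8 ± 4.8 CPM with vehicle. Spp1, which encodes osteopontin, had a member 7.73 kb away with 10.8 ± 1.3 CPM with Cort, 10.9 ± 1.2 CPM with Dex, 29.5 ± 4.4 CPM with IL4 and 17.7 ± 2.9 CPM with vehicle. Integrins and adhesion genes had 4 of 151 peaks (Cd44, Itgb3, Nrp2 and Plxna2), chemokine and G protein-coupled receptors 1 of 97 (P2ry1), macrophage identity genes 1 of 58 (Mrc1) and inflammatory genes 0 of 94.

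Glucocorticoid-induced genes had 1 member among 84 peaks, in Sgk1, a kinase that steroids induce in many tissues. That peak (chr10:21902012-21903285) had 2.69 ± 0.88 CPM with Cort, 2.25 ± 1.0 CPM with Dex, 11.4 ± 1.6 CPM with IL4 and 6.85 ± 2.3 CPM with vehicle (SD, n = 3 each). The list's 187 tested peaks had 63 called higher and 0 lower with Cort and 86 higher and 2 lower with Dex, or 89 and 5 with Cort and 114 and 8 with Dex under the block, so the Sgk1 member lay on the other side of vehicle from nearly every called peak of its list. Of the marker lists for other cells, the lymphoid one had 1 member, in the B-cell gene Ms4a1 (chr19:11266113-11267730, ratios 0.609 for Cort, 0.459 for Dex and 1.47 for IL4), and the fibroblast, neutrophil, dendritic, mast or basophil, and erythroid or megakaryocyte lists had 0.

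By the smallest of its 3 log2 ratios, the most opposed member lay 55.0 kb from Arhgap5 (chr12:52627012-52629825). It had 5.12, 5.76 and 4.85 CPM with Cort, 4.57, 4.52 and 4.25 CPM with Dex, 31.9, 31.0 and 32.9 CPM with IL4 and 12.6, 14.4 and 16.6 CPM with vehicle. All 3 ratios were at 2-fold or more in 5 of the 744 peaks, and each of the 5 lay over 50 kb from a gene: this one and those 59.3 kb from Rap1b, 111 kb from Fam170a, 256 kb from Klf6 and 159 kb from Dusp4. A peak 2.74 kb from Ercc6, which encodes a DNA repair ATPase, was among the 12 most opposed, with 3.07, 4.10 and 3.64 CPM with Cort, 4.70, 3.14 and 2.60 CPM with Dex, 38.3, 27.7 and 34.8 CPM with IL4 and 8.72, 6.79 and 6.94 CPM with vehicle (chr14:32507822-32510556). No treatment overlapped vehicle at the Arhgap5 or the Ercc6 peak.

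The strongest of the 744 peaks in vehicle were broad regions inside genes. The peak over the promoter of Anxa2, a calcium-dependent membrane-binding protein, had 88.7, 98.9 and 99.9 CPM with Cort, 86.0, 89.3 and 85.6 CPM with Dex, 218, 214 and 212 CPM with IL4 and 126, 135 and 135 CPM with vehicle (chr9:69453062-69468834). The groups stood well apart there, with an SD of at most 6.2 CPM in any group. In Rgl1, an exchange factor for the GTPase Ral, the peak had 138, 246 and 95.6 CPM with Cort, 124, 234 and 93.8 CPM with Dex, 249, 346 and 263 CPM with IL4 and 181, 292 and 181 CPM with vehicle (chr1:152523470-152543600). All groups overlapped vehicle at Rgl1, and replicate 2 was the highest in each group. Within each replicate number, both steroid libraries lay under vehicle and the IL4 library above it, and the peak was called in all 3 comparisons with the block and in none without it. Pcdh7, a protocadherin of cell contacts, had 4 members among 6 peaks. The one over its promoter had 18.1 ± 2.2 CPM with Cort, 16.6 ± 1.8 CPM with Dex, 56.3 ± 3.7 CPM with IL4 and 28.4 ± 6.9 CPM with vehicle (chr5:57714123-57719482, SD, n = 3 each). Sh3kbp1, an adaptor of receptor endocytosis, had 4 members among 27 peaks, and its promoter peak had 11.3 ± 0.81 CPM with Cort, 12.8 ± 2.4 CPM with Dex, 26.9 ± 2.0 CPM with IL4 and 17.8 ± 5.2 CPM with vehicle (chrX:159838637-159842456).

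Dexamethasone differs from corticosterone in structure by, among others, a fluorine and an added methyl group. Their doses differed (100 nM Dex and 500 nM Cort), so the values stand side by side. The Dex level was below the Cort level at 540 of the 744 peaks (72.6%, against 50.0% of all tested peaks), by a median log2 difference of -0.09. Single differences ran from -1.0 to 0.93. None of the 744 peaks was called different between Dex and Cort by edgeR (background 0%), and at an unadjusted p under 0.05 there were 1 higher and 12 lower with Dex. DESeq2 and the fit with the replicate block also called 0. The difference had a 95% interval that stayed between -1 and 1 on the log2 scale at 545 of the peaks (73.3%, against 60.7% of all tested peaks). With the replicate block this held at 629 (84.5%, against 71.9%). At the other peaks the interval did not exclude a 2-fold difference. Both groups had entered the rule.

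GR peaks were rare within the set. At least 1 base was shared with a GR peak by 21 of the 744 (2.82%), against 9.88% of the peaks of at least 3 CPM with IL4. The share was 5.98% where IL4 raised the mark with steroid levels near vehicle and 4.33% where the steroids lowered it without a rise with IL4. Within the interquartile ranges of length and vehicle level it was 1.08% (3 of 279), against 4.31% (376 of 8714). Position was not matched there, as 0 of the 279 touched a promoter window, against 11.2%. These 21 peaks held 24 GR peaks, 15 of them with reads enough for a test and 9 with too few. With Cort 3 of the 15 were called, 1 higher and 2 lower (background 12.8% higher and 14.8% lower), and with Dex also 1 higher and 2 lower (background 14.7% and 15.6%). With IL4 0 were called (background 0%), and DESeq2 called 0 as well, with 1 higher and 1 lower at an unadjusted p under 0.05 in edgeR. GR counts were low, between 0 and 76 per library in these peaks. The 76 stood in Cort replicate 4 at an untested peak in Dock1, against 4, 2 and 2 in the other Cort libraries. Scaling matters for their direction: with total-count scaling the median of all tested GR peaks moved from 0.17 to 0.96 in the Cort comparison, from -0.12 to 0.86 in the Dex comparison and from -0.10 to 0.33 in the IL4 comparison.

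The GR peak that was higher with both steroids lay in Dpys, a pyrimidine-degrading enzyme gene beside Dcstamp (chr15:39770849-39771208). It had 18.5, 18.7, 18.1 and 14.1 TMM-normalised CPM with Cort, 18.9, 13.6, 15.5 and 14.4 with Dex, 10.9, 20.1 and 10.5 with IL4 and 7.08, 7.80, 8.89 and 7.75 with vehicle. Every treated library lay above every vehicle library. The log2 change was 1.11 ± 0.29 (SE, adjusted p = 0.0114) with Cort, 0.96 ± 0.29 (adjusted p = 0.02) with Dex and 0.83 ± 0.33 (adjusted p = 0.41) with IL4, in edgeR's quasi-likelihood test. In batch 2 alone the changes were 0.84 with Cort and 0.79 with Dex, and neither was called. The Dex call was also lost in DESeq2 and without Dex replicate 1, vehicle replicate 1 or vehicle replicate 2, at 0.86 to 0.91. With total-count scaling it was 1.91 with Cort and 1.94 with Dex, above the shifted medians. The H3K27ac peak around it (chr15:39770215-39772352) had 10.2, 11.3 and 11.1 CPM with Cort, 8.26, 12.5 and 8.00 CPM with Dex, 31.6, 29.6 and 31.7 CPM with IL4 and 20.0, 12.4 and 19.8 CPM with vehicle.

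At Lpl, 5 GR peaks lay in the H3K27ac peaks, and 2 of them were called lower with both steroids. The first (chr8:68887470-68887602) had 8.34, 12.8, 2.26 and 1.69 normalised CPM with Cort, 6.10, 11.1, 0.0 and 1.86 with Dex, 2.73, 2.67 and 3.76 with IL4 and 17.0, 27.9, 3.81 and 7.75 with vehicle. In the Cort, Dex and vehicle groups replicates 1 and 2, which form batch 1, were the higher ones, and within each batch both steroids lay under vehicle. The log2 change was -1.21 ± 0.42 (adjusted p = 0.0446) with Cort and -1.64 ± 0.43 (adjusted p = 0.00977) with Dex in the same test. The second (chr8:68895701-68895882) had 10.2, 8.86, 1.69 and 1.13 normalised CPM with Cort, 13.9, 10.7, 0.595 and 0.465 with Dex, 4.78, 2.67 and 2.26 with IL4 and 21.2, 33.4, 1.27 and 12.9 with vehicle. Its changes were -1.72 ± 0.52 (adjusted p = 0.0258) with Cort and -1.66 ± 0.51 (adjusted p = 0.0234) with Dex. These calls rested on batch 1 and on the scaling. Batch 2 alone had too few reads to test either peak. With total-count scaling the changes were -0.36 and -0.86 with Cort and -0.65 and -0.67 with Dex, none of them called, and still below the shifted medians of all GR peaks. The calls were also lost without the batch term and without the filter on low counts. Without Cort replicate 1, vehicle replicate 2, vehicle replicate 4 or any 1 IL4 library, 0 GR peaks of the set were called lower with Cort. It was 1 without Cort replicate 2, Cort replicate 3, Dex replicate 1 or vehicle replicate 3. With Dex, 1 was called lower without Dex replicate 2, IL4 replicate 2, IL4 replicate 3, vehicle replicate 2 or vehicle replicate 4. The other 12 tested GR peaks, among them those in Rgl1 and near Dusp4, were not called. A test of the steroid effect between batches found 0 of 24 differences at an adjusted p under 0.05 (edgeR, lowest adjusted p = 0.545). With 2 libraries per treatment and batch and low counts, it cannot show that the batches agreed. Its log2 differences, batch 2 minus batch 1, ran from -1.84 to 0.46 for Cort. For Dex they ran from -2.21, at the second Lpl peak, to 1.07.

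**Figure D5:**
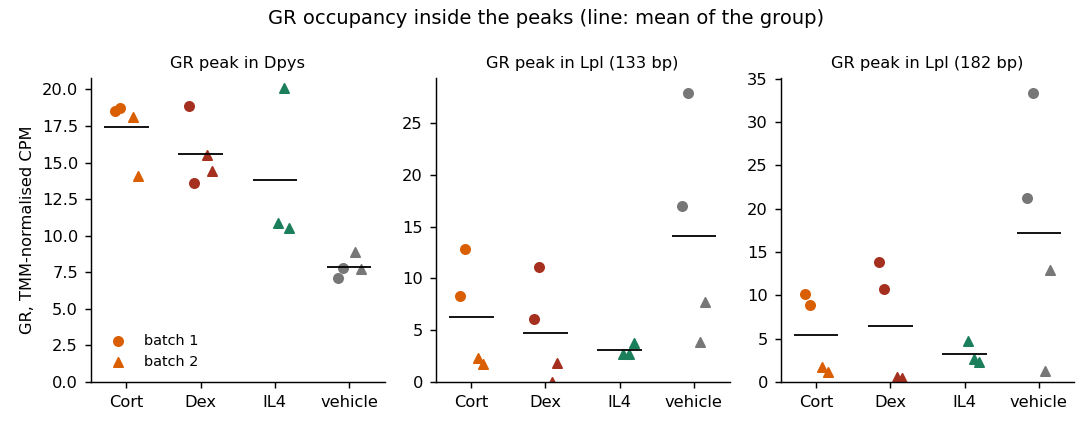
GR level in TMM-normalised CPM (vertical axis) at the 3 GR peaks called with a steroid, in each Cort, Dex, IL4 and vehicle library; circles are batch 1, triangles batch 2 and lines group means. At Dpys all treated libraries lie above the 4 vehicle libraries, and at both Lpl peaks the circles of batch 1 stand above the triangles of batch 2 in the steroid groups.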

How the data were processed

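The H3K27ac peaks were chosen, and the gene lists and markers fixed, with earlier results of these data known. The authors deposited 1 table of unnormalised read counts per assay, over a common peak set. The submitters' processing notes name mm10 as the build and list featureCounts, MACS2, fastp, SAMtools and Bowtie2 as tools. Versions, the merging of peaks and the criterion of a column named filtered are not given in the sources used here. Columns headed C were taken as vehicle by elimination, as the rest carry a treatment in their header. The input library was not analysed here.

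CPM was computed as the count divided by the library's total in peaks, scaled to 1000000. Counts were tested in R 4.3.3 with edgeR 4.0.16 (filterByExpr, TMM, quasi-likelihood F test, all groups of an assay in 1 fit, batch as a covariate for GR). Adjusted p-values are Benjamini-Hochberg over all tested peaks, and a peak was called at an adjusted p under 0.05. Standard errors were taken from the log2 change and F as |change| over √F. Such an error, and its interval, can come out too wide where the change is very close to 0. Only the edgeR fit was tested on simulated counts, with known changes set in IL4 against vehicle. Those counts held no replicate or batch effect. Replicate numbers paired the H3K27ac libraries, by the data and not by the labels. The deviations of same-numbered libraries from their group means correlated at 0.398 to 0.835 in 18 pairs, against -0.627 to 0.156 in the 36 other pairs. The fit with this block is given beside the main fit for the H3K27ac calls of the set and of the gene lists whose calls are printed.

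Peaks were given the nearest of 20010 named protein-coding gene spans of RefSeq's GRCm38.p6 table. Peaks were named from the 12 with the largest opposition score (the smallest of the 3 log2 ratios, each signed in the direction of the rule). They were also named from the 6 with the most vehicle signal, up to 4 per list, and genes with 3 or more peaks (up to 8). Further sources were peaks with a called GR peak, the peaks at each threshold and the groups with the most peaks. Not every peak or gene of these selections appears in the text. Other names were chosen after their values were seen. The alternatives were other scalings, pseudocounts, thresholds and filters, DESeq2 1.42.0, compared groups alone, the block, no batch term, batch 2 alone and leaving out each library. Restricting length and level to the interquartile ranges was added after seeing the data.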

Additional observations from a re-analysis of the deposited data

Results flagged for a closer look

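Of 45 groups of 4 GR libraries examined at the tested GR peaks, 2 held a library far from the others, by the gap to the nearest library over the group's range. Chance flags about 1 group in 20. At the GR peak in Dpys (chr15:39770849-39771208) Cort replicate 4 was the lowest of the Cort libraries, at 14.1 normalised CPM, against 18.5, 18.7 and 18.1 in the others. At the GR peak in Pgm5 (chr19:24707461-24707633) Dex replicate 3 was the highest of the Dex libraries, at 7.14 normalised CPM. The 9 GR peaks with too few reads were not examined in this way. Among them, Cort replicate 4 had 76 counts in Dock1, against 4, 2 and 2 in Cort replicates 1, 2 and 3. It also had 36 in Armc4 (against 2, 2 and 3), 21 near B4galt5 (1, 0 and 1) and 20 near Cdh3 (5, 1 and 4). The H3K27ac peaks around these are among the 21 with a GR peak.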

How the results depend on the processing

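The set itself held 191 peaks with ratio limits of 0.67 and 1.5 in place of 0.77 and 1.3, and 572 to 1111 when a library or replicate number was left out. The count called lower with Cort (19) was 61 with DESeq2, 273 with the replicate block, 43 among peaks with filtered TRUE and 1 in the compared groups alone, with 2 to 27 when a library was left out. The count called lower with Dex (120) was 439 with the block and 39 in the compared groups alone, with 29 to 137 when a library was left out. The count called higher with IL4 (495) stayed within 383 to 518 when a library was left out. The 3 GR peaks called with Cort became 5 with median-of-ratios scaling, 5 with DESeq2, 1 without a count filter, 1 without the batch term and 0 in batch 2 alone, with 1 to 4 when a library was left out. Those called with Dex (3, of which 1 higher and 2 lower) became 5 with total-count scaling, all higher, as were the 2 then called with Cort, and became 1 without a count filter, 1 without the batch term and 0 in batch 2 alone, with 1 to 4 when a library was left out. The share with a GR peak was 1.75% over GR peaks with enough reads (8.26% of all peaks of at least 3 CPM), 0.403% over GR peaks with filtered TRUE (3.91% of all) and 1.08% in the interquartile ranges. The IL4 change of the Lpl GR peak at chr8:68895701-68895882, -0.42 and not called, turned to 0.15 with total-count scaling and to 0.72 without vehicle replicate 4, and ran from -0.94 to 0.72 when a library was left out. The cause was not tested in any of these. For named peaks, steroid and IL4 changes in H3K27ac kept their sign under every alternative run. Nothing is read from this, since the rule chose these peaks by those signs in the same libraries. GR depth limits what can be seen: 9 of 24 GR peaks had too few reads to test.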

Other observations

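The highest IL4 ratios in the set, looked at after their values were seen, were at sites where vehicle was weak. Ang6 belongs to a family of ribonucleases with nearly the same sequence, so its reads are uncertain, and the peak there had 20.4 ± 1.2 CPM with IL4 and 1.03 ± 0.62 CPM with vehicle (chr14:44006695-44008245, SD, n = 3 each). A peak 240 kb from Mreg, a melanosome transport regulator, had 46.4 ± 2.9 CPM with IL4 and 3.79 ± 1.3 CPM with vehicle, and its steroid ratios were 0.76 for Cort and 0.696 for Dex (chr1:71916344-71919062). In Syt6, a synaptotagmin, the peak had 41.3 ± 5.3 CPM with IL4 and 4.73 ± 1.8 CPM with vehicle (chr3:103600382-103602398).

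Peaks near 3 other genes were also looked at after their values were seen. Near Tnfsf4, which encodes OX40 ligand, 3 peaks 16.3 to 40.3 kb away had ratios of 0.565 to 0.684 with Cort, 0.514 to 0.652 with Dex and 1.62 to 2.34 with IL4. On the far side of Myc, 4 peaks in 3 separate groups, 144 to 818 kb from the gene, had ratios of 0.60 to 0.727 with Cort, 0.452 to 0.557 with Dex and 1.48 to 2.58 with IL4. Near Socs5, a suppressor of cytokine signalling, a peak 32.0 kb away had ratios of 0.585 with Cort, 0.567 with Dex and 3.02 with IL4 (chr17:87169632-87172927).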
